A study of Mus musculus with 4 samples.

Results

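Of the 29924 gene names on the array, 10 were followed here as a set around the transcriptional coactivators YAP and TAZ. They are *Ctgf*, *Cyr61*, *Ankrd1* and *Amotl2*, which YAP and TAZ are widely known to switch on, *Yap1* and *Wwtr1*, which encode YAP and TAZ, *Tead1* and *Tead2*, which encode DNA-binding partners of both, and *Vgll2* and *Vgll3*, which encode Vestigial-like cofactors. All probes that carry these gene symbols were taken, 13 of 39429. The set was selected on these arrays, with its mutant over control log2 ratios known, so the ratios of the 10 genes and any count made from them are given as a description, without a test. In brief, *Ctgf* and *Vgll2* were higher in mutant than in control pools on all 4 arrays, *Cyr61* was lower on all 4, *Amotl2*, *Yap1*, *Wwtr1*, *Tead1* and *Tead2* had ratios of both signs, and *Ankrd1* and *Vgll3* were not well above background in any of the 8 pools.

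The tissue was the cochlear duct of NMRI mouse embryos at E14.5, the epithelial tube in which the organ of Corti forms, and the question was which transcripts change when the T-box transcription factor gene *Tbx2* is removed from its Sox2-expressing progenitors. Mutants (*Sox2-Tbx2LOF*) were labelled Sox2(creERT2);Tbx2(fl/fl). In them a tamoxifen-dependent Cre recombinase is driven from the *Sox2* locus, so *Tbx2* is deleted only in cells with *Sox2* activity and their descendants, and the deletion need not be complete. Controls were labelled Tbx2(fl/n.d.) and are called cre-negative in the methods. They therefore carried a floxed *Tbx2* allele too, and the crosses also brought in the *R26* mTmG reporter. Only mutant pools carried the Cre insertion at *Sox2* and active Cre, whose part cannot be told apart from that of *Tbx2* loss. All dams received a single oral pulse of 4 mg tamoxifen at E12.5. Each RNA sample came from a sex-sorted pool of ducts whose spiral ganglion had been removed. Each array set 1 mutant pool against 1 control pool of the same sex. Female pools were on arrays 1 and 2 and male pools on arrays 3 and 4. The mutant pool carried the dye Cy5 on arrays 1 and 3, and on the other 2 it carried Cy3 and the control pool Cy5. Genotype, sex and dye were thus balanced over 4 pools per genotype.

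YAP and TAZ are shuttling proteins without a DNA-binding domain of their own. In the nucleus they bind TEAD proteins and turn on genes for matrix, adhesion and growth. The Hippo kinases MST and LATS phosphorylate YAP and TAZ, which keeps them in the cytoplasm, and cell crowding, cell polarity and mechanical tension set how strongly the kinases act. Vestigial-like proteins bind TEAD at a surface that overlaps with that for YAP and TAZ and form other complexes with it. Control of YAP and TAZ is largely by phosphorylation and localisation, which an RNA array does not measure. In the inner ear the Hippo pathway is known for its part in growth of the sensory epithelium.

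The labels were checked first. *Tbx2* itself was lower in the mutant pool on 4 of 4 arrays, with log2 ratios of -0.25, -0.05, -0.13 and -0.03 (mean -0.12 ± 0.10, SD, n = 4), and it did not pass the test (limma, adjusted p = 0.124). Where its probe lies relative to the deleted part was not examined. *Esr1*, whose human counterpart supplies the hormone-binding part of the CreERT2 fusion, was well above background in 4 of 4 mutant pools and in 0 of 4 control pools, a difference of at least 4.24-fold on the probe of the mouse gene (limma, adjusted p = 5.96e-06). *Sox2* had a mean log2 ratio of 0.01 ± 0.18 (SD, n = 4). All 12 markers of cochlear duct epithelium were detected well above background in each of the 8 pools. The same held for all 12 markers of periotic mesenchyme, the tissue around the duct. The summed signal of the mesenchyme markers (1 of 12 higher and 1 lower at an adjusted p below 0.05, limma) was higher in the mutant pool on 4 of 4 arrays (397084 to 414521 in mutant and 359313 to 389698 in control pools), as was that of the epithelial markers (385470 to 430422 against 361878 to 396618, 1 of 12 higher and 2 lower). The summed signal of 8 endothelial markers was higher in the mutant pool on 4 of 4 arrays too, with 2 markers higher and 0 lower. It was 46885 to 51927 in mutant and 43250 to 48686 in control pools. Melanocyte sums were higher on 4 of 4 arrays and blood sums on 2 of 4, with 0 of 7 markers passing in either list. Of all genes tested, 2.26% were higher and 2.92% lower. The larger marker shifts were in neural lists. Of 11 neuronal markers tested 6 were lower and 2 higher (limma, adjusted p below 0.05), among them *Elavl3* at -1.08, and of 8 markers of Schwann cell precursors 3 were lower (*Foxd3* at -1.17, *Fabp7* at -1.03 and *Cdh19* at -0.63, mean log2 ratios) and 1 higher, while the summed signals of both lists overlapped between genotypes (55501 to 60924 in mutant and 55692 to 58273 in control pools for neurons, 171533 to 198273 and 174376 to 204152 for Schwann cell precursors). The part of such shifts in the ratios below was not tested. In such pooled RNA, fewer cells of a type and less RNA per cell cannot be told apart.

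The promoters of the target genes are shown because TEAD proteins recognise the letters GGAATG, read on the other strand as CATTCC. The windows are the 250 bases before the transcription start in RefSeq (GRCm38.p6, whereas the array files use mm9), 5′ to 3′ on the strand of the gene, and capitals mark GGAATG or CATTCC. *Cyr61*, listed there under its newer name *Ccn1*, lies at chr3:145649986-145650235 on the minus strand, *Amotl2* at chr9:102717554-102717803 on the plus strand and *Ankrd1* at chr19:36119845-36120094 on the minus strand. The *Vgll2* window, chr10:52022252-52022501 on the plus strand, is shown beside them because it holds neither spelling.
Cyr61: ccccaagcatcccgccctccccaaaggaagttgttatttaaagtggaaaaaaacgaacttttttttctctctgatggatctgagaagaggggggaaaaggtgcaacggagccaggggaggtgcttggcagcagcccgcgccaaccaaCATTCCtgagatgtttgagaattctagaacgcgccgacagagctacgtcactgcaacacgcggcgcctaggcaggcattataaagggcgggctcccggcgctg
Amotl2: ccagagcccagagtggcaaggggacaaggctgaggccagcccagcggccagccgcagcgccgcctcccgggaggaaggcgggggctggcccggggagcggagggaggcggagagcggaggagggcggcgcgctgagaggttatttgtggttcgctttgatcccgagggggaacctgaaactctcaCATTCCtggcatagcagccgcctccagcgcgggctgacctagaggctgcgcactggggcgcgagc
Ankrd1: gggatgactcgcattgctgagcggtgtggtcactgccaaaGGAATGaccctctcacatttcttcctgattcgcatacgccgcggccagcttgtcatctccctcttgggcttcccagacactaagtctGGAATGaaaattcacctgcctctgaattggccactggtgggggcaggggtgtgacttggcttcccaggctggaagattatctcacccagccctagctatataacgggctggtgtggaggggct
Vgll2: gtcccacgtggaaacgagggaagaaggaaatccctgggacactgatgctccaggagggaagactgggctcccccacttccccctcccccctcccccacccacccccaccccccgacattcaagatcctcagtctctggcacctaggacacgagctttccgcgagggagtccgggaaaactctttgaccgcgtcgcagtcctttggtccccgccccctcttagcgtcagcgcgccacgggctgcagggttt

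In these windows the letters begin 103 bases before the start of *Cyr61*, 65 bases before that of *Amotl2*, and 210 and 123 bases before that of *Ankrd1*. Of the 10 genes, 8 had a window in the table and 6 of them held GGAATG on either strand, the others being *Yap1* (141 bases before the start), *Wwtr1* and *Vgll3* (63 bases). *Tead2* and *Vgll2* held none, and *Ctgf* and *Tead1* had no window. Over all 32851 promoter windows of the same length, 12.6% held GGAATG or CATTCC. The core letters of a T-box site, GGTGTGA or its reverse TCACACC, occurred in 3.33% of all windows and in 1 of the 8, that of *Ankrd1*, 76 bases before the start. A match of letters is a description of the window and does not show that a factor binds there.

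*Ctgf* encodes a secreted matrix-associated protein of the CCN family and is among the most often used readouts of YAP and TAZ. Its probe lies at chr10:24318281-24318340 (mm9, plus strand). On the normalized log2 signal scale the 4 mutant pools read 14.42, 14.84, 14.62 and 14.67 on arrays 1 to 4, and the control pools of the same arrays read 13.98, 13.89, 14.09 and 14.07. Every mutant pool lay above every control pool, and the control pools were the more alike (SD 0.09 against 0.17). The log2 ratios were 0.44, 0.96, 0.54 and 0.59, a mean of 0.63 ± 0.22 (SD, n = 4) or 1.55-fold. The female array 2, which held the highest mutant and the lowest control value, gave the largest of them. Without that array the estimate of the fit with its dye term was 0.54, below 1.5-fold.

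The 4 copies of the *Ctgf* probe on each array differed little, with a spot to spot SD of 0.02 to 0.04 in the log2 ratio, and all 16 unflagged spots were above 0. The spread of *Ctgf* between arrays was therefore wider than the spread between spots of an array. Across the 21042 genes tested, the median SD between arrays was 0.10. The mutant over control ratio of *Ctgf* was the 1 ratio of the set that passed both limits used for calls over all genes, an adjusted p below 0.05 and a change of 1.5-fold or more. Of all genes, 0.133% passed both limits as higher and 0.309% as lower. None of the set was called lower. Because the ratio was known when the set was made, nothing is read from that count.

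**Figure D1:**
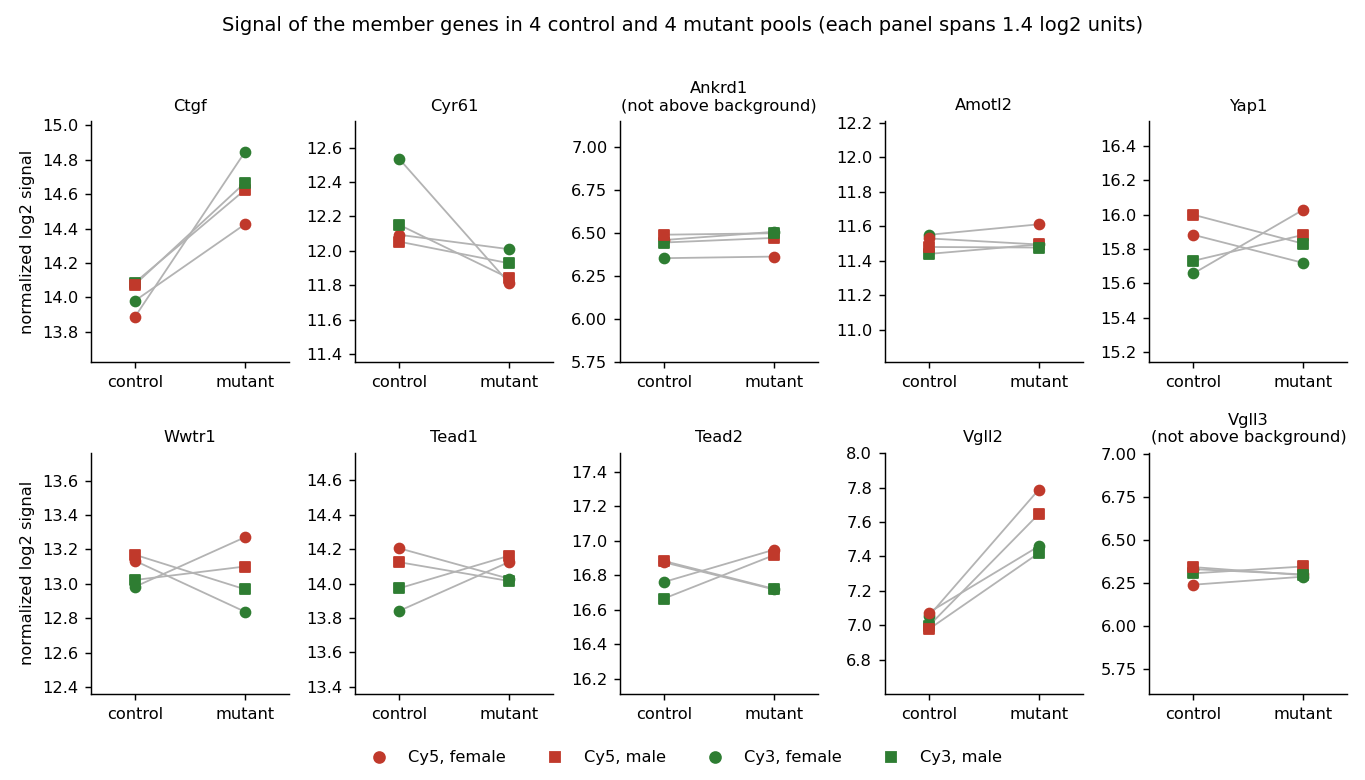
Normalized log2 signal of the 10 genes in 4 control and 4 mutant pools, with a grey line joining the 2 pools of an array, red for Cy5 and green for Cy3, circles for female and squares for male pools. In *Ctgf* and *Vgll2* every mutant pool lies above every control pool, in *Cyr61* every mutant pool lies below, and in *Yap1*, *Wwtr1*, *Tead1* and *Tead2* the lines cross, with the red point of each pair the higher one.

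*Cyr61* encodes a close relative of the *Ctgf* product and is the other standard readout of YAP and TAZ. Its probe lies at chr3:145310187-145310246 (mm9, minus strand), 110.8 Mb from that of *Sox2*, the locus that carries the Cre insertion. The mutant pools read 11.81, 12.01, 11.84 and 11.93, and the control pools 12.53, 12.09, 12.15 and 12.05. Every control pool lay above every mutant pool, but the highest mutant and the lowest control pool were close, and the female control pool of array 1 stood clear of the other 3. The log2 ratios were -0.72, -0.08, -0.31 and -0.13, with a mean of -0.31 ± 0.29 (SD, n = 4), which is 1.24-fold higher in control pools. All 15 unflagged spots were below 0. With the dye term kept in the fit, which then weights the remaining arrays by orientation, the estimate was -0.21 without array 1 and -0.41 without array 3.

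*Cyr61* is also known as an immediate early gene, induced within minutes to hours of a stimulus to the cell. A list of 8 such genes (*Fos*, *Fosb*, *Egr1*, *Ier2*, *Jun*, *Junb*, *Atf3* and *Dusp1*) was therefore set beside it. That list was chosen after values had been seen. The log2 ratios of *Fos*, which encodes a subunit of the AP-1 transcription factor, were -3.17, -0.47, -0.94 and -0.15, and those of *Egr1*, a zinc finger transcription factor, were -1.10, -0.19, 0.17 and -0.10. *Jun* (mean 0.08 ± 0.24, SD, n = 4) and *Atf3* (0.02 ± 0.09) stayed near 0. Of the 8 genes, 5 had their lowest ratio on array 1, the array with the lowest *Cyr61* ratio. The other arrays did not run in parallel. All 8 genes were below 0 on array 2, where *Cyr61* was at -0.08. On array 3, where *Cyr61* was at -0.31, 1 of the 8 was below 0, and on arrays 1 and 4 it was 6 each. The summed signal of the 8 genes was 30022 in the control pool of array 1, at most 23030 in the other control pools and 19272 to 21328 in the mutant pools. Over the 4 arrays 1 of the 8 passed the test, *Dusp1*, a phosphatase of MAP kinases (mean log2 ratio -0.29 ± 0.20, SD, n = 4, limma, adjusted p = 0.0322), and it had a log2 ratio of 0.01 on array 3. The part of these genes in the *Cyr61* result was not tested.

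*Ctgf* and *Cyr61* thus stood on opposite sides of 0 on every array. The log2 ratio of *Ctgf* exceeded that of *Cyr61* by 1.17, 1.04, 0.85 and 0.72 on arrays 1 to 4 (mean 0.94 ± 0.20, SD, n = 4). Array 1 had the lowest ratio of both genes and array 2 the highest of both, and their difference varied less between arrays than the *Cyr61* ratio did.

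*Amotl2* encodes an angiomotin-like protein that binds YAP and holds it at cell junctions, and it is itself a target of YAP. The mutant pools read 11.61, 11.49, 11.49 and 11.48 and the control pools 11.55, 11.53, 11.44 and 11.48. The groups overlapped throughout. The log2 ratios of 0.06, -0.04, 0.05 and -0.003 averaged 0.02 ± 0.05 (SD, n = 4), the narrowest spread of the 8 tested genes, measured in 12 unflagged spots.

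*Ankrd1* encodes a nuclear ankyrin repeat protein of muscle and of cells under strain. Its probe was not well above background in any of the 4 mutant and 4 control pools. The raw spot intensities were 40.5 to 103 in mutant and 34.7 to 106 in control pools, against a local background of 24.5 to 94.0, and no fold is given.

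*Yap1* and *Wwtr1* are the coactivator genes. In *Yap1* the mutant pools read 16.03, 15.72, 15.88 and 15.83 and the control pools 15.66, 15.88, 15.73 and 16.00. In *Wwtr1* the mutant pools read 13.27, 12.84, 13.10 and 12.97 and the control pools 12.98, 13.13, 13.02 and 13.17. In both genes the groups overlapped, and within each array the pool labelled with Cy5 was the brighter one whatever its genotype. The log2 ratios were 0.37, -0.16, 0.15 and -0.17 in *Yap1* (mean 0.05 ± 0.26, SD, n = 4). They were 0.29, -0.30, 0.08 and -0.20 in *Wwtr1* (mean -0.03 ± 0.27, SD, n = 4). Since each genotype was labelled with either dye equally often, an additive dye difference cancels in these means. The *Wwtr1* probe lies 22.7 Mb from that of *Sox2* on chromosome 3.

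*Tead1* and *Tead2* encode 2 of the TEAD family of DNA-binding proteins. The brightest *Tead1* probe read 14.13, 14.03, 14.16 and 14.01 in mutant pools and 13.84, 14.20, 13.97 and 14.12 in control pools. Its log2 ratios were 0.28, -0.18, 0.19 and -0.11 (mean 0.05 ± 0.22, SD, n = 4). A second *Tead1* probe gave a mean of 0.02 ± 0.22 (SD, n = 4) with the same signs on each array. The third was well above background in 1 of 4 mutant and 0 of 4 control pools. Both measured *Tead1* probes alternated with the dye, and in both the groups overlapped.

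The brightest *Tead2* probe read 16.95, 16.72, 16.92 and 16.72 in mutant pools and 16.76, 16.88, 16.67 and 16.88 in control pools, with log2 ratios of 0.19, -0.16, 0.25 and -0.16 (mean 0.03 ± 0.22, SD, n = 4). Its other probe gave 0.07, -0.04, 0.14 and 0.11 (mean 0.07 ± 0.08, SD, n = 4). The groups overlapped on both probes, and only the brighter one showed the alternation with the dye.

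**Figure D2:**
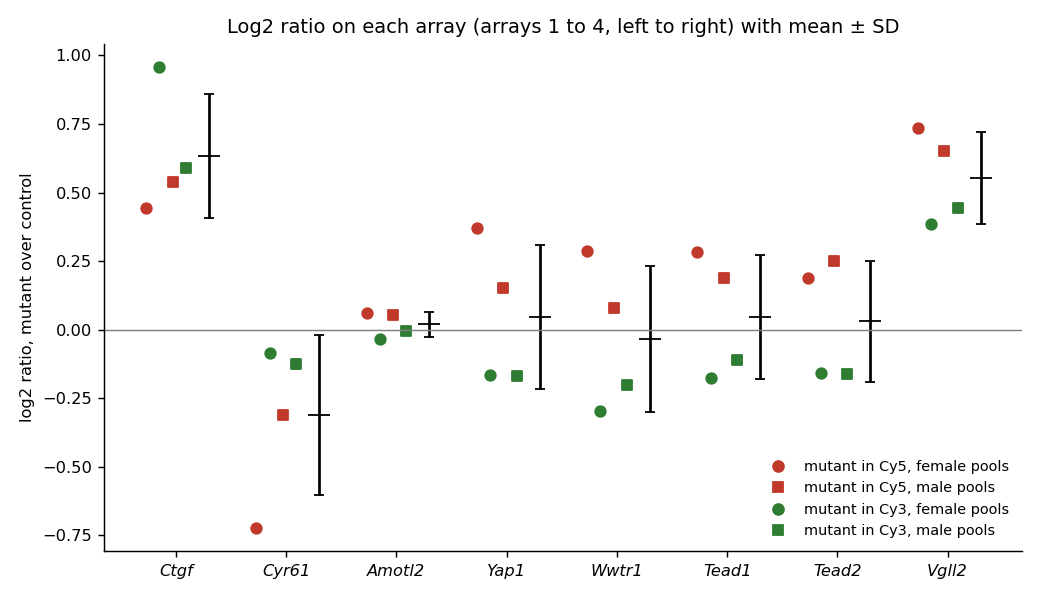
Log2 ratio of mutant over control on arrays 1 to 4, left to right within each of the 8 tested genes, with the mean ± SD over the 4 arrays as a black bar, red where the mutant pool was labelled with Cy5 and green where it was labelled with Cy3. *Ctgf* and *Vgll2* lie above 0 and *Cyr61* below 0 on all arrays. The red points of *Yap1*, *Wwtr1*, *Tead1* and *Tead2* lie above 0 and their green points below.

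The alternation of the coactivator and TEAD probes was measured as a dye effect, the log2 ratio of Cy5 over Cy3 averaged over both orientations. It was 0.21 for *Yap1*, 0.22 for *Wwtr1*, 0.19 for *Tead1* and 0.19 for *Tead2*, whereas the middle 90% of all tested genes lay between -0.16 and 0.17. It was -0.21 for *Cyr61*, -0.14 for *Ctgf*, 0.14 for *Vgll2* and 0.04 for *Amotl2*. So 4 of the 8 tested genes lay above the 95th percentile and 1 below the 5th. In all 5 the dye effect was added to or taken from the ratio of a single array, and only means over both orientations are comparable between genes. In *Cyr61* the lower ratios, on arrays 1 and 3, were those with the mutant in Cy5.

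**Figure D3:**
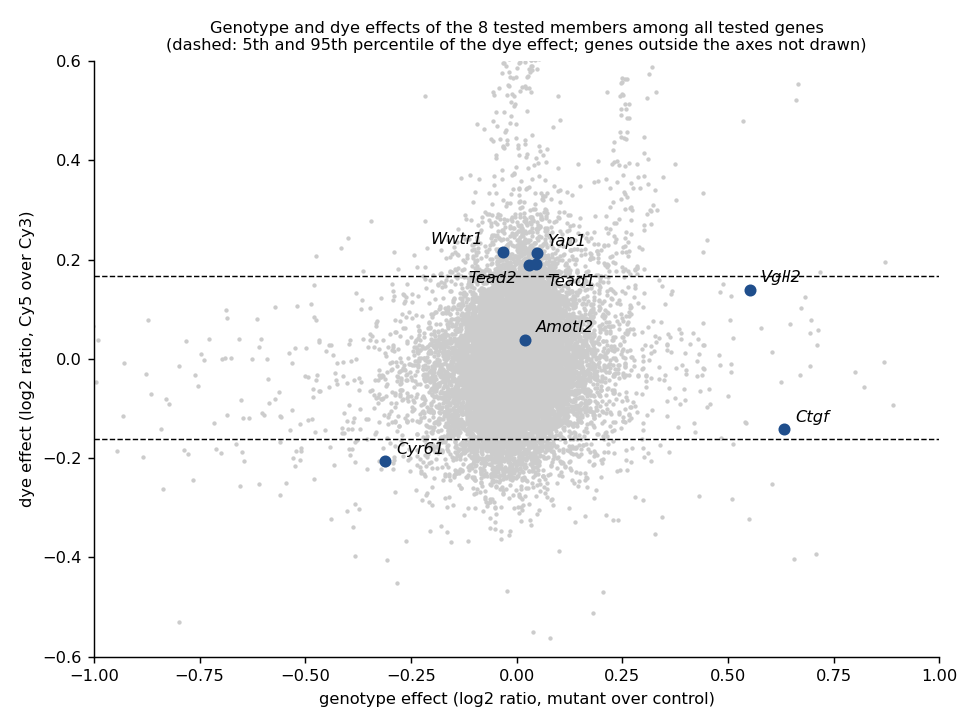
Genotype effect (horizontal, log2 ratio of mutant over control) and dye effect (vertical, log2 ratio of Cy5 over Cy3) of the tested genes in grey, with the 8 tested genes of the set in blue and the 5th and 95th percentile of the dye effect dashed. *Yap1*, *Wwtr1*, *Tead1* and *Tead2* lie near 0 on the genotype axis and above the upper dashed line.

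*Vgll2* encodes a TEAD cofactor best known from skeletal muscle. Its probe lies at chr10:51748095-51748154 (mm9, plus strand). The mutant pools read 7.79, 7.46, 7.65 and 7.42 and the control pools 7.05, 7.07, 7.00 and 6.98. Every mutant pool lay above every control pool. The log2 ratios were 0.73, 0.39, 0.65 and 0.44, a mean of 0.55 ± 0.17 (SD, n = 4) or 1.47-fold, with 16 of 16 unflagged spots above 0. The probe was dim. Raw spot intensities were 103 to 295 in mutant and 65.4 to 167 in control pools over a local background of 24.0 to 97.6, and yet it was well above background in all 8 pools.

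The size of the ratio depended on the processing. It was 0.75 with an offset of 10 in place of 50, a change of the background step alone. It was 1.14 on the processed signals of Agilent, where the dye normalization differs too, and 1.13 in the value table of the authors, whose normalization is not known here. The log2 ratio of *Vgll2* is therefore given as a range over these settings, from 0.55 with an offset of 50 to 1.14. It went past 1.5-fold in each of the 3, and with median centring too, at 0.60. Beside this, of 12 markers of skeletal muscle *Myf5*, *Myf6* and *Ckm* were not well above background in any pool, and the summed signal of the list was 2467 to 2597 in mutant and 2475 to 2558 in control pools. Of the 8 muscle markers tested, 0 were higher and 1 was lower (limma, adjusted p below 0.05). The part of muscle cells in the *Vgll2* values was not tested.

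*Vgll3*, its relative, was not well above background in any pool. Its raw intensities were 32.5 to 96.6 in mutant and 32.3 to 89.6 in control pools over a local background of 24.1 to 94.7.

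**Figure D4:**
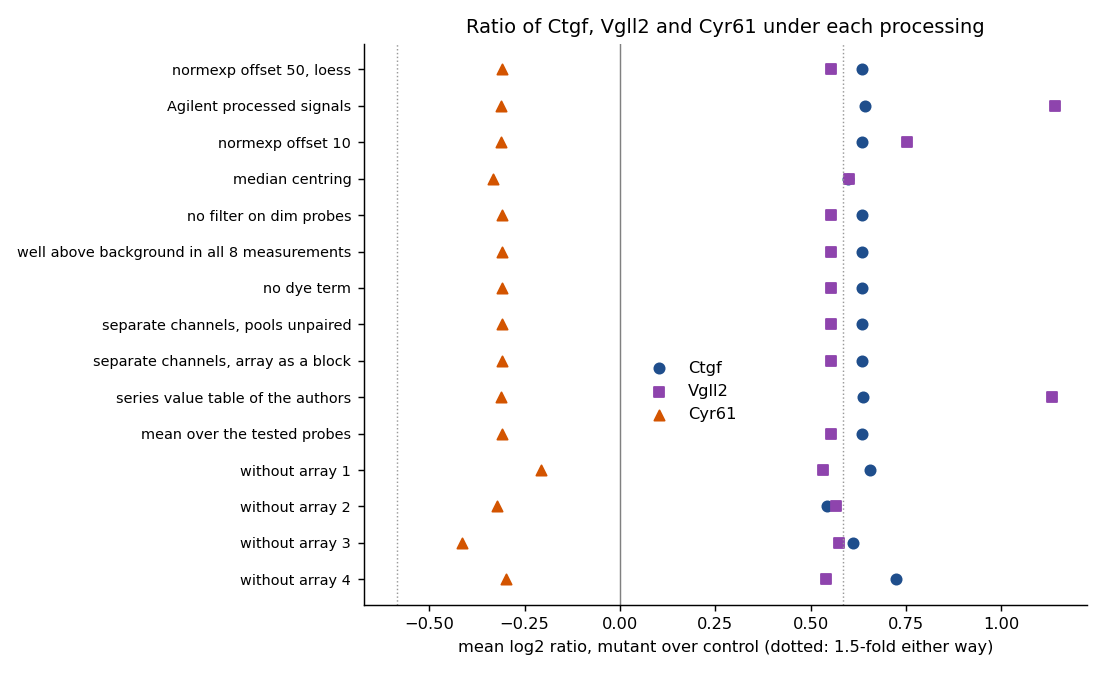
Mean log2 ratio of mutant over control of *Ctgf* (circles), *Vgll2* (squares) and *Cyr61* (triangles) under the reported processing (top line) and 14 alternatives, with 1.5-fold either way dotted. *Ctgf* and *Cyr61* move mainly when an array is left out, and *Vgll2* moves from 0.55 to 0.75 with an offset of 10, 1.14 on Agilent processed signals and 1.13 in the value table of the authors.

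Counted over the 8 tested genes, 2 had all mutant pools above all control pools and 1 had the reverse, where 1.75% and 2.59% of all tested genes did. With an adjusted p below 0.05 and no limit on the fold, 2 were higher (2.26% of all genes) and 1 was lower (2.92%). These counts concern ratios that were known when the genes were picked.

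The sexes were not part of that choice and were tested. No gene of the set was called for a genotype effect that differed between female and male pools. By the limma interaction term 0 of 8 had an adjusted p below 0.05 and 0 of 8 an unadjusted p below 0.05. Over all genes the share called in that test was 0% by limma, with 558 of 21042 at an unadjusted p below 0.05. The female minus male difference in log2 ratio was 0.14 for *Ctgf* (95% interval -0.12 to 0.39), -0.18 for *Cyr61* (-0.44 to 0.07) and 0.01 for *Vgll2* (-0.18 to 0.21). With 2 arrays per sex these intervals leave room for differences of that width, and they rest mostly on a spread borrowed from all genes. The level averaged over both genotypes was not called different between the sexes for any of the 8 genes either, where 0.038% of all genes were. The largest difference was 0.12 in *Cyr61*, higher in female pools (95% interval -0.04 to 0.28).

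The other genes of the pathway came from 4 lists, 55 genes in all, of which 52 were tested. Together 1 was higher and 3 were lower at an adjusted p below 0.05, and 0 passed 1.5-fold as well. That is 1.92% higher and 5.77% lower, beside 2.26% and 2.92% of all genes tested. Their median log2 ratio was -0.02, beside 0.00 for all genes tested. Of the 7 genes of the kinase cassette (*Stk3*, *Stk4*, *Sav1*, *Lats1*, *Lats2*, *Mob1a* and *Mob1b*) 0 passed, with log2 ratios from -0.13 in *Stk3*, an MST kinase, to 0.08 in *Lats1*.

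Of 22 upstream regulators 1 passed. *Fat4* encodes a giant atypical cadherin of planar polarity, and its probe lies at chr3:38910550-38910609 (mm9, plus strand). That is on the chromosome of *Sox2*, the locus with the Cre insertion, and nearer to *Sox2* than the *Wwtr1* probe. The part of this nearness in the *Fat4* ratio was not tested. *Fat4* read 11.36, 11.10, 11.24 and 11.20 in mutant and 11.10, 10.90, 11.03 and 10.94 in control pools. Every mutant pool lay above every control pool, although the lowest mutant and the highest control pool were nearly level. The log2 ratio was 0.23 ± 0.03 (SD, n = 4), higher on 4 of 4 arrays (limma, adjusted p = 0.0104). It did not pass without array 1 or without array 3.

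Of the other TEAD, Vestigial-like and CCN genes 0 of 7 passed. *Tead3* had a log2 ratio of -0.01 ± 0.06, *Tead4* of 0.02 ± 0.11 and *Vgll4*, a TEAD cofactor that represses, of 0.08 ± 0.23 (SD, n = 4). *Nov*, a CCN gene like *Ctgf* and *Cyr61*, was below control on 4 of 4 arrays at -0.19 ± 0.12 (SD, n = 4) and narrowly missed the test (limma, adjusted p = 0.0544).

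Of 20 tested targets of YAP and TAZ beyond the set, 0 were higher and 3 were lower (15%, beside 2.26% of all genes higher and 2.92% lower), with a median of -0.05. *Ccnd1*, the cell cycle regulator cyclin D1, read 15.78, 15.49, 15.64 and 15.58 in mutant and 16.02, 16.04, 15.91 and 15.84 in control pools, which did not overlap. Its log2 ratio was -0.33 ± 0.14 (SD, n = 4, limma, adjusted p = 0.0103), with the largest difference on array 2. *Igfbp3*, a binding protein of insulin-like growth factors, was at -0.32 ± 0.11 (SD, n = 4), lower on 4 of 4 arrays (limma, adjusted p = 0.00395), and its other probe was at -0.18 ± 0.06. *Tgfb2*, a secreted growth factor, was at -0.31 ± 0.14 (SD, n = 4), also lower on 4 of 4 arrays (limma, adjusted p = 0.00225), and its other probe was at -0.17 ± 0.26 and lower on 3 of 4. Without array 1 or without array 3, *Igfbp3* and *Tgfb2* passed and *Ccnd1* did not. *Ccnd1* also did not pass in the value table of the authors.

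**Figure D5:**
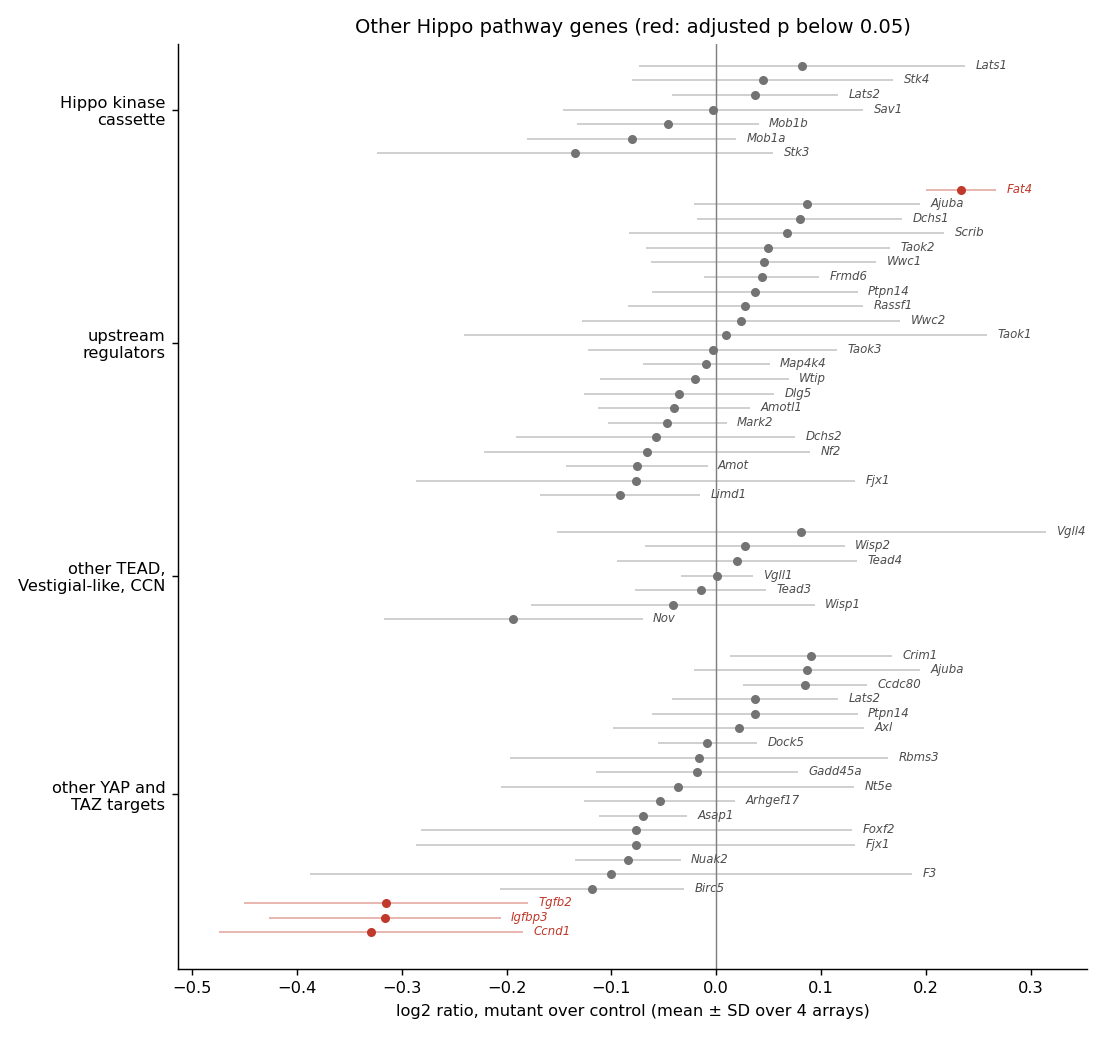
Mean log2 ratio of mutant over control with its SD over 4 arrays for each tested gene of the 4 Hippo pathway lists, 4 genes being drawn in more than 1 list, with adjusted p below 0.05 in red. *Fat4* lies at 0.23 and *Tgfb2*, *Igfbp3* and *Ccnd1* lie between -0.31 and -0.33.

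The genes whose signal followed that of *Ctgf* most closely over the 8 pools, after the mean of each dye had been taken off, were *Rspo3* (Pearson r = 0.989), *4731419I09Rik* (0.988), *Crhr1* (0.986), *5830454E08Rik* (0.983) and *Fgfr3* (0.980). *Rspo3* encodes an activator of Wnt signalling, *Crhr1* a receptor of corticotropin-releasing hormone and *Fgfr3* a fibroblast growth factor receptor. The 8 pools share 4 arrays and fall into 2 genotypes, so these values mostly describe the step between genotypes. Measured in the same way, *Vgll2* had r = 0.854 and *Cyr61* r = -0.846 with *Ctgf*, whereas *Amotl2* had r = -0.01.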

How the data were processed

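RNA of 8 pools of cochlear ducts was hybridized to 4 Agilent 2-colour arrays, which lay on 1 slide and were scanned together. The authors deposited the output of Agilent Feature Extraction (version 10.7.3.1 in the submitters' processing notes), in which the intensity of a spot is its mean brightness and that of its local background the median, neither of them normalized, beside Agilent's processed intensity, after background subtraction and dye normalization. The series value table that the authors deposited holds a score for each probe and array, whose values behave as signed fold changes between mutant and control (median 1 on each array, correlation with the log ratios computed here 0.882 to 0.913). How it was normalized and centred is not given in the sources used here. Median raw intensity was 263 to 292 in Cy3 and 496 to 563 in Cy5, 8.29% to 8.56% of spots were flagged, and 0 were saturated. The number of arrays limits precision.

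Background was corrected with normexp (offset 50) followed by loess on the log2 ratios of each array in limma 3.58.1 under R 4.3.3. Unflagged spots of a probe, out of 4, were averaged, control spots left out. A probe counted as well above background in a pool when 50% or more of its unflagged spots were, and was tested when this held in at least 4 of 8 pools. The brightest tested probe stood for a gene, which gave 21042 tested genes. Levels per pool came from the same ratios with Aquantile between arrays. Genes were fitted with lmFit and eBayes with genotype and dye terms, and p-values were adjusted by Benjamini-Hochberg over all tested genes. The interaction with sex was a further term, and sex levels were compared over the 4 array means. The pools are called independent in the methods. The p-values of the genotype fit measure the spread of the array ratios left after the dye term, drawn towards that of all genes by eBayes. The SD printed beside them still holds the dye effect and is not that spread. Fits were also run on simulated data with known changes and independent noise for each gene. Such data lack effects shared by the genes of an array, so no error rate is read from them.

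The 10 genes, the pathway and marker lists and the alternatives were chosen with earlier results of these data known. All 10 genes are named, of the pathway lists those with adjusted p below 0.05, and the 5 genes most like *Ctgf*; other genes named were picked after their values were seen. Probe coordinates are those of the files (mm9), promoter windows those of RefSeq (GRCm38.p6).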

Additional observations from a re-analysis of the deposited data

Results flagged for a closer look

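The 4 values of a group were compared with each other for each tested gene of the set and the 4 pathway genes that passed the test, 36 groups in all. A value was picked out when its gap to the nearest other value took up most of the range of the group (Dixon's ratio at its 95% critical value), and chance alone picks out about 1 in 20 groups. Of the 36 groups, 2 held such a value. The *Amotl2* signal of the mutant pool on array 1 was 11.61 on the log2 scale, above the other 3 mutant pools at 11.48 to 11.49. The log2 ratio of *Ccnd1* on array 2 was -0.55, and it lay between -0.24 and -0.27 on the other arrays. No gene of the set had both female arrays on one side of 0 and both male arrays on the other.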

How the results depend on the processing

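The fits without a dye term and of separate channels leave the mean ratio of this balanced design unchanged, and both changed filters kept the same probes. Stability of a ratio under these is therefore not a finding. Each ratio was compared with its SD between arrays, a wide measure that also holds the dye effect. Except for *Vgll2*, the log2 ratio of each of the 8 tested genes moved by less than that SD under all 14 alternatives. That of *Vgll2* was 1.14 on the processed signals of Agilent, 0.75 with a normexp offset of 10 and 1.13 in the value table of the authors. Under each of these, and with median centring, 2 genes of the set were called higher in place of 1, the second being *Vgll2*. Leaving out each array in turn gave 0 to 1 called higher and none called lower, with 0 when array 2 was left out and *Ctgf* dropped below 1.5-fold. The *Cyr61* ratio ran from -0.41 to -0.21 over these, and its adjusted p from 0.00287 to 0.335 over all alternatives, which is given to show its spread and not as a test. Among the other pathway genes, the fit without a dye term and the unpaired fit of separate channels each gave 0 higher and 1 lower (*Igfbp3* without the dye term, *Tgfb2* in the unpaired fit), and in the value table of the authors *Ccnd1* was lost. Leaving out each array in turn gave 0 to 1 higher and 2 to 4 lower. *Fat4* did not pass without array 1 and without array 3, and *Ccnd1* did not pass without either of them. With the array as a block, with median centring and with the mean over the tested probes, 4 pathway genes were lower in place of 3, the added one being *Nov*. The median log2 ratio of all genes stayed between -0.01 and 0.01. No gene of the set passed the interaction or the sex test under the 5 alternatives run for them, although median centring gave 19 interaction calls over all genes. A block for slide or scan could not be fitted, as both had 1 value. With 4 arrays, changes within the dye and spot effects given above were not detectable, and *Ankrd1* and *Vgll3* were not well above background.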
